A study of Homo sapiens with 16 samples.

Results

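The data described here are the signals of 9 genes of the pyruvate dehydrogenase system in SUM225 cells exposed to a HER2 kinase inhibitor. They are the 4 pyruvate dehydrogenase kinases (PDK1, PDK2, PDK3 and PDK4) and 5 genes for proteins of the pyruvate dehydrogenase complex (PDHA1, PDHB, DLAT, PDHX and DLD), of 18631 gene symbols on the array. Probes were matched to the members by symbol alone, and each member was measured by 1 probe. The list of members was drawn up with earlier results of these data known. SUM225 is a human line derived from a breast cancer with an amplified, over expressed HER2 gene, and CP724,714 is a small inhibitor of the HER2 kinase. All cultures were of the same line, which the labels describe as grown in Ham's F-12 medium with serum, insulin and hydrocortisone, and all but the 0 h culture had received 1 µM CP724,714. RNA was taken from parallel cultures at 3 h intervals between 0 and 45 h, and each culture was read on its own Illumina bead array, 16 in all. No time point had a replicate and no untreated course was analysed here, so the inhibitor cannot be told apart from time in culture or from handling at the start of treatment.

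The pyruvate dehydrogenase complex sits in the mitochondrial matrix and converts pyruvate, the end product of glycolysis, to acetyl-CoA, which enters the tricarboxylic acid cycle. PDHA1 and PDHB form the decarboxylating E1 enzyme, DLAT is the E2 acetyltransferase core, DLD is the E3 dehydrogenase and PDHX holds E3 on the core. The PDK isoforms switch the complex off by phosphorylating PDHA1, and phosphatases reverse this. PDK4 is known for its induction by fasting, fatty acids, glucocorticoids and FOXO factors, PDK1 for its induction by hypoxia, PDK2 for its wide tissue expression and PDK3 for a more restricted one.

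The stretches of 250 bases upstream of the start sites of PDK4, PDK3 and PDK2 are printed here because these 3 kinases carry the changes described below. They are RefSeq sequences of GRCh38.p14, 5′ to 3′ on the strand of the gene, at chr7:95596517-95596766 (minus strand) for PDK4, chrX:24465036-24465285 (plus strand) for PDK3 and chr17:50095101-50095350 (plus strand) for PDK2. Capitals mark matches, on either strand, to 3 short motifs: AGAACA, which reads TGTTCT on the other strand, a half-site of the glucocorticoid receptor; ACGTG, or CACGT in reverse, the core of the hypoxia response element; and CCAAT, or ATTGG in reverse, the CCAAT box.
PDK4: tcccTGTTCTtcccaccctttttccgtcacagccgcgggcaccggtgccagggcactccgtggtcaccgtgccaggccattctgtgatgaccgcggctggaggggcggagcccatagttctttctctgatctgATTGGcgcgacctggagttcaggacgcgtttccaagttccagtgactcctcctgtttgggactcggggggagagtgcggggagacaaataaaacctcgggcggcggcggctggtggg
PDK3: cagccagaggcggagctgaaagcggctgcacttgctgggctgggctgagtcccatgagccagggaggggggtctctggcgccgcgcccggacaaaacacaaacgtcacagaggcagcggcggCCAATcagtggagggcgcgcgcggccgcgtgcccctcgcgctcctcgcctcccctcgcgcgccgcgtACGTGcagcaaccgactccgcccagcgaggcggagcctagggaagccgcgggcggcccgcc
PDK2: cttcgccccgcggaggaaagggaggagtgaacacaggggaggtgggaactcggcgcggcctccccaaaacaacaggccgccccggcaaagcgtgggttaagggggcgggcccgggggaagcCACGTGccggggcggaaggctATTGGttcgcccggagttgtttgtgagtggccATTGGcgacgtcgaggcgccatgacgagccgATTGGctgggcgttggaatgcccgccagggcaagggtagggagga

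The PDK4 stretch has a GC content of 62.8%, against 73.6% for PDK3 and 67.6% for PDK2. In PDK4, TGTTCT lay 246 bases and ATTGG 117 bases before the start. In PDK3, CCAAT lay 128 bases and ACGTG 61 bases before the start. The PDK2 stretch, 1 of 3 listed for that gene and the one richest in CG dinucleotides, held CACGTG, in which the hypoxia core reads on both strands and overlaps itself, and 3 copies of ATTGG. A FOXO element spelled GTAAACA, or TGTTTAC in reverse, was also searched for and was in none of the 7 listed stretches of the 4 kinases. Of all 35116 stretches of the same length, 2.98% held GTAAACA, 12.4% the receptor half-site, 18.5% the hypoxia core and 32% the CCAAT box, each on either strand. These matches are descriptions of letters, and binding was not measured.

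All 9 probes were detected on 16 of 16 arrays. None was near the brightest signal of an array: the highest, PDHB, reached 28.0% of it. Of 24526 probes, 16110 were detected (p under 0.05) on 3 or more arrays and were tested together. Values are normalized log2 signals, on which 1 unit is a doubling. The linear change is the straight-line part of a cubic course fitted over the 16 arrays and scaled to 45 h, its standard error comes from the deviations around the course, and p-values are from limma, adjusted over all probes tested. Median raw signals of the arrays ranged from 242.2 to 383.8, and 14110 to 15073 probes were detected per array. The 6 epithelial markers KRT8, KRT18, KRT19, EPCAM, CDH1 and ERBB2 were detected on every array, while VIM, PDGFRB and PTPRC were detected on 0 arrays, CD3E on 1, COL1A1 and COL1A2 on 5 each and CD14 and PECAM1 on all 16. Of the 4 markers of other cells that could be tested, 1 rose (CD14, 0.34 ± 0.14 (SE), adjusted p = 0.0499) and 0 fell (limma), with 1, PECAM1, lower at an unadjusted p under 0.05. A second CD14 probe changed by 0.27 ± 0.15 (adjusted p = 0.160). Of the epithelial markers 0 rose (0 at an unadjusted p under 0.05 by limma) and 2 fell, KRT8 by 0.68 ± 0.10 and KRT18 by 0.74 ± 0.10, each by its brightest probe. Both marker counts stand beside 26% of all probes that rose and 21.7% that fell. A second KRT18 probe changed by -0.07 ± 0.16 (adjusted p = 0.746). For ERBB2 the brightest probe (mean log2 signal 16.10) changed by 0.02 ± 0.04 (adjusted p = 0.783). That probe and the one of KRT19 (16.11) lay close to the brightest raw signals of the arrays, 71727 to 74152. They had little room to rise, so their flat values do not show stable RNA. A second ERBB2 probe, of mean log2 signal 10.35, rose by 0.44 ± 0.09 (adjusted p = 0.000418). In such bulk RNA a lower share of cells expressing a gene and less of its RNA per cell cannot be told apart.

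In earlier results of these data the arrays were seen to fall into sets of 4 successive time points (0 to 9, 12 to 21, 24 to 33 and 36 to 45 h). The labels name no batch, and each set covers its own stretch of hours, so differences between sets cannot be told apart from time. The change within sets is therefore given beside the linear change of each member, from a fit with the set as a factor. In that fit 0 of the 9 members passed the adjusted threshold (limma), against 0.9% of all probes in either direction. At an unadjusted p under 0.05 by limma there were 2 (PDK2 and PDHX), and the share of all probes at that level was not computed. A fit with the set as a factor has wide errors, since each set spans 9 of the 45 h.

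The kinase transcripts moved in opposite directions. PDK4 and PDK2 rose, PDK3 fell, and PDK1 showed no linear change past the threshold. Of the 4 kinases, 3 had a time-dependent course (adjusted p under 0.05 for the 3 terms of the cubic), against 51.3% of all probes tested. A linear rise was called for 2 of 4, against 26% of all probes, and a linear fall for 1 of 4, against 21.7%. The median linear change of the 4 was 0.59, beside 0.05 over all probes tested, where the median size of the change was 0.37.

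**Figure D1:**
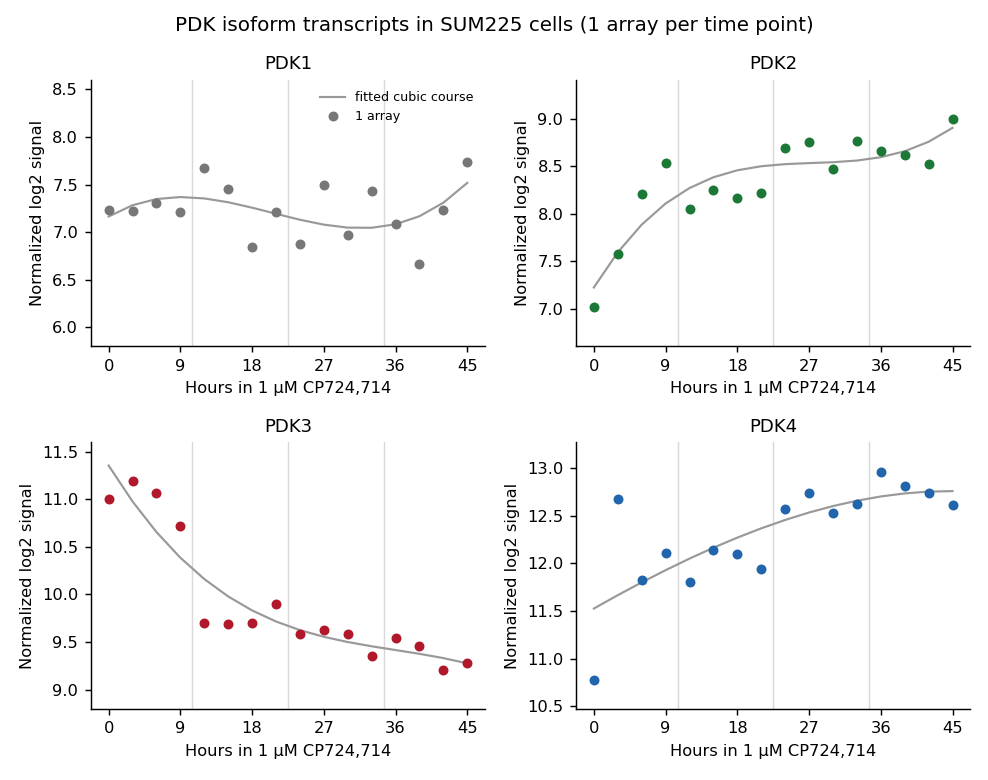
Normalized log2 signal of PDK1, PDK2, PDK3 and PDK4 (y axis, own scale for each gene) against hours in 1 µM CP724,714 (x axis). Each point is 1 array, the curve is the fitted cubic course and pale vertical lines part the 12 h sets; PDK4 and PDK2 have their lowest value at 0 h, and PDK3 drops between 9 and 12 h.

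PDK4, the isoform best known for its response to fasting, was lowest at 0 h. At 0, 3, 6 and 9 h its log2 signal was 10.78, 12.67, 11.83 and 12.11. At 12, 15, 18 and 21 h it was 11.81, 12.14, 12.10 and 11.94. All 15 later arrays lay above the 0 h array, a count that rests on that single array, and the 3 h array stood above the 6 to 21 h arrays. At 24, 27, 30 and 33 h the signal was 12.58, 12.74, 12.53 and 12.62, and at 36, 39, 42 and 45 h it was 12.97, 12.81, 12.74 and 12.62. The 8 arrays from 24 h on did not overlap the 6 arrays from 6 to 21 h, but the 3 h array, at 12.67, lay within their range. The share of all probes parted in this way was not computed. The highest value, at 36 h, was 4.55-fold above 0 h, and the value at 45 h was 3.57-fold above it. The linear change was 1.26 ± 0.27 (SE; 95% interval 0.69 to 1.83; adjusted p = 0.000744), a 2.40-fold rise. With array weights it was 0.75 ± 0.24 (adjusted p = 0.0124). With the set as a factor it was 0.86 ± 1.13 (adjusted p = 0.780), and with a term for a step from 21 to 24 h it was 0.21 ± 0.65 (adjusted p = 0.860).

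The first 3 h held the largest step of PDK4. Its signal was 3.72-fold higher at 3 h than at 0 h, and only 9 of the 16110 probes tested (0.0559%), itself included, increased by as much between these arrays. Among the 9 members it was the only one to differ by 1.7-fold or more at 3 h, against 1.82% of all probes at least 1.7-fold above 0 h and 2.43% at least 1.7-fold below. The smooth course did not follow this step: the 0 h array lay 0.75 under the fitted curve and the 3 h array 1.01 above it. The step rests on 1 array at each time and carries no test. Without the 0 h array the linear change was 0.87, and without the 3 h array it was 1.58.

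PDK2, the widely expressed isoform, was also lowest at 0 h. Its log2 signal was 7.02, 7.58, 8.20 and 8.53 at 0, 3, 6 and 9 h, then 8.05, 8.25, 8.16 and 8.22 at 12 to 21 h. It was 8.69, 8.75, 8.47 and 8.77 at 24 to 33 h, and 8.66, 8.62, 8.53 and 9.00 at 36 to 45 h. The signal was higher on each successive array through 9 h, where PDK4 had already passed its early peak, and was lower by 0.49 at the step from 9 to 12 h. At 45 h it was 3.95-fold above 0 h. The linear change was 1.24 ± 0.19 (95% interval 0.84 to 1.63; adjusted p = 2.04e-05), a 2.36-fold rise. Within sets it was 2.43 ± 0.90 (adjusted p = 0.208, unadjusted p = 0.0143 by limma), and the last array of each set lay above its first, by 1.51, 0.17, 0.08 and 0.34. With a term for a step from 21 to 24 h the linear change was 0.15 ± 0.41 (adjusted p = 0.843). PDK2 was a dim probe, with raw signals of 284 to 872, and the size of its change depended on the offset and on background correction. With an offset of 50 the linear change of PDK2 was 1.10 ± 0.17 (adjusted p = 2.15e-05). Without background correction it was 0.76 ± 0.12 (adjusted p = 2.47e-05). In that setting PDK2 minus PDK1, given below, was 0.78 ± 0.15 and PDK4 minus PDK2 was 0.45 ± 0.30.

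PDK3, the isoform of more restricted expression, fell. Its log2 signal was 11.01, 11.19, 11.06 and 10.72 at 0 to 9 h and 9.70, 9.69, 9.70 and 9.90 at 12 to 21 h. It was 9.58, 9.62, 9.58 and 9.35 at 24 to 33 h and 9.55, 9.45, 9.20 and 9.28 at 36 to 45 h. The 4 arrays of the first 9 h did not overlap the 12 later arrays, and most of the fall lay in a single interval, between 9 and 12 h, where the signal dropped by 1.02. The share of all probes with such a separation was not computed, while 13.9% were called lower at 12 to 21 h than at 0 to 9 h (limma). The range over the course was 3.97-fold, from the highest at 3 h to the lowest at 42 h. The linear change was -1.85 ± 0.19 (95% interval -2.24 to -1.45; adjusted p = 1.71e-07), a 3.59-fold fall whose size exceeded that of 96.7% of all probes tested. PDK3 was the 1 kinase of 4 with a curved course, one not described by a straight line alone (adjusted p = 0.0281), against 19.3% of all probes; without the 3 h array 0 of the 9 members were called curved. With a term for a step from 21 to 24 h the change was -2.07 ± 0.49 (adjusted p = 0.00530), and within sets it was -0.82 ± 0.50 (adjusted p = 0.475).

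PDK1, the isoform known as a hypoxia target, had log2 signals from 6.66 at 39 h to 7.74 at 45 h with a median of 7.23. The lowest and highest values thus lay 2 time points apart, late in the course. The 4 arrays of the first 9 h differed little, from 7.21 to 7.30, and the arrays after them scattered on both sides of that range. The linear change was -0.07 ± 0.22 (95% interval -0.54 to 0.40; adjusted p = 0.831), and the course was not time-dependent by the test (adjusted p = 0.401). Within sets the change was 0.63 ± 1.01 (adjusted p = 0.830). The probe was dim, with raw signals of 267 to 477.

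Because 1 array measured all 4 kinases at each time, the change in the ratio between isoforms was taken within arrays. The levels of the isoforms were not compared, since each has its own probe. All 6 pairs were fitted by the same cubic course, with a 95% interval and no p-value. The ratio of PDK4 to PDK3 relative to that at 0 h was 3.27 at 3 h and 1.99 at 6 h, then grew from 5.06 at 12 h to 9.31 at 24 h, with a maximum of 13.6 at 42 h and 11.9 on the last array. All 15 later arrays lay above the 0 h array. In linear change PDK4 exceeded PDK3 by 3.11 ± 0.30 on the log2 scale (95% interval 2.46 to 3.75), an 8.63-fold shift. Within sets the difference was 1.68 (95% interval -1.33 to 4.69), which does not exclude 0.

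The shift between PDK2 and PDK3 was of like size. PDK3 minus PDK2 had a difference in linear change of -3.09 ± 0.19 (95% interval -3.50 to -2.67), and the ratio at 45 h had moved 13.1-fold from that at 0 h, with 15 of 15 later arrays below the first. This was the one pair whose interval also excluded 0 within sets, at -3.25 (95% interval -5.89 to -0.61), and with the step from 21 to 24 h as a term it was -2.22. For PDK4 minus PDK2 the difference in linear change was 0.02 ± 0.31, with an interval from -0.66 to 0.70 that leaves room for a difference of up to about 0.70 either way. It became 0.42 ± 0.15 without the 3 h array, an interval that excluded 0. At 3 h the ratio of PDK4 to PDK2 was 2.53 times that at 0 h, and from 6 h on it stayed between 0.88 and 1.46 times.

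**Figure D2:**
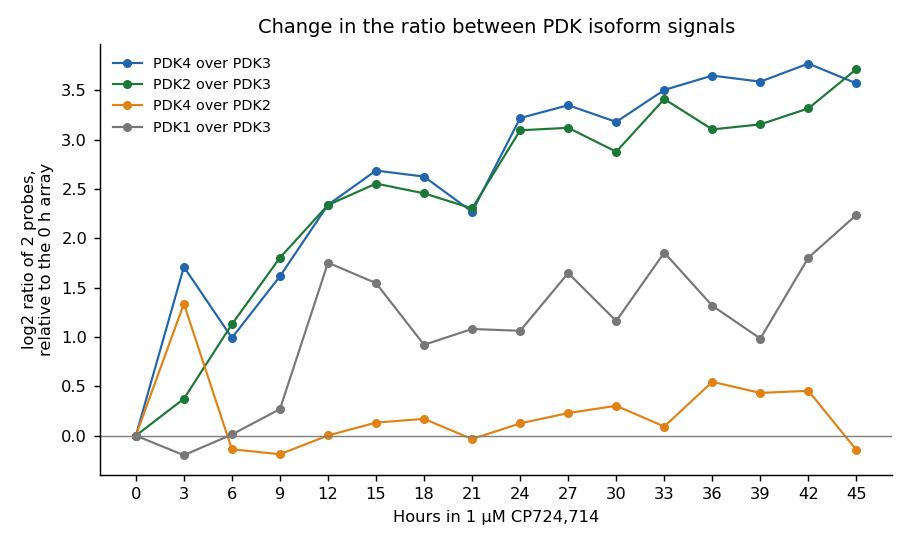
Change in the ratio between kinase signals, as log2 relative to the 0 h array (y axis), against hours in 1 µM CP724,714 (x axis), 1 point per array. PDK4 over PDK3 reaches 3.57 at 45 h, PDK2 over PDK3 follows the same path (PDK3 minus PDK2 is -3.71 there), and PDK4 over PDK2 peaks at 1.34 at 3 h and lies between -0.19 and 0.55 from 6 h on.

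Measured against PDK1, PDK4 and PDK2 changed upwards and PDK3 downwards. The difference in linear change was 1.33 ± 0.43 for PDK4 minus PDK1 (95% interval 0.38 to 2.28), 1.31 ± 0.29 for PDK2 minus PDK1 (0.67 to 1.94) and -1.78 ± 0.37 for PDK3 minus PDK1 (-2.58 to -0.98). PDK4 and PDK2 were above their 0 h ratio to PDK1 on 15 of 15 later arrays, and PDK3 was below it on 14 of 15. Here and for the pairs above, these counts all rest on the 1 array at 0 h. For PDK4 that array lay 0.75 under the fitted course. The share of all pairs of probes with such counts was not computed. With the set as a factor or a step between 21 and 24 h the 3 intervals included 0.

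The transcripts of the complex itself moved little. The 5 probes spanned 1.31-fold (DLD) to 1.697-fold (DLAT) over the course, compared with 2.11-fold to 4.55-fold for the kinases. Of the 5, 3 had a time-dependent course (PDHA1, PDHB and DLAT), against 51.3% of all probes, and 1 a curved course (PDHA1), against 19.3%. A linear rise was called for 0 (0 at an unadjusted p under 0.05 by limma), against 26% of all probes, and a linear fall for 2 (DLAT and PDHX), against 21.7%. Their median linear change was 0.06, beside 0.05 over all probes.

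PDHA1, the E1 alpha subunit that the kinases phosphorylate, went down and came back. Its log2 signal was 12.79 at the start and 12.72 at 9 h, dropped to 12.41 and 12.29 on the 12 and 15 h arrays, and was 12.60 at 24 h and 12.95 on the last array. The lowest 2 arrays were thus at 12 and 15 h and the highest at 45 h. The course was time-dependent (adjusted p = 0.00878) and curved (adjusted p = 0.0236), with a linear change of 0.19 ± 0.10 (adjusted p = 0.126). Within sets the change was 0.41 ± 0.36 (adjusted p = 0.644). PDHB, the partner of PDHA1 in E1, had a like shape, from 13.76 at 0 h to 13.24 at 12 h and 13.78 at 45 h, with an adjusted p of 0.0488 for the course and a linear change of 0.06 ± 0.10 (adjusted p = 0.677). For PDHB the change within sets was 0.09 ± 0.34 (adjusted p = 0.938). Across the 16 arrays PDHA1 and PDHB had a Pearson r of 0.73, and 0.57 for the deviations from their fitted courses, on points that share arrays and normalization.

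DLAT, the E2 core, had its highest value at 0 h, 11.34, its lowest at 12 h, 10.58, and 10.83 at 45 h. The 4 arrays of the first 9 h (11.06 to 11.34) lay above all 12 later arrays (10.58 to 10.98), a separation whose share over all probes was not computed. The linear change was -0.30 ± 0.11 (adjusted p = 0.0241). The call was lost without the 0 h array (-0.20, adjusted p = 0.174), the 3 h array (-0.26, adjusted p = 0.0828) or the 6 h array (-0.27, adjusted p = 0.0546), and within sets the change was 0.04 ± 0.43. PDHX, which tethers E3, was 12.49 at 0 h, highest at 6 h with 12.68, lowest at 33 h with 12.06, and 12.08 at 45 h. Its linear change was -0.33 ± 0.12 (adjusted p = 0.0229), a call lost without the 3 h (adjusted p = 0.0698), 6 h (adjusted p = 0.0561) or 45 h array (adjusted p = 0.0783). The last array of each PDHX set was at or under the first, by -0.0006, -0.22, -0.41 and -0.39, and the change within sets was -1.09 ± 0.41 (adjusted p = 0.218). DLD, which is shared with other 2-oxoacid dehydrogenases, ranged from 11.79 at 18 h to 12.18 at 9 h, with a linear change of 0.13 ± 0.10 (adjusted p = 0.311) and 0.51 ± 0.34 within sets (adjusted p = 0.526).

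**Figure D3:**
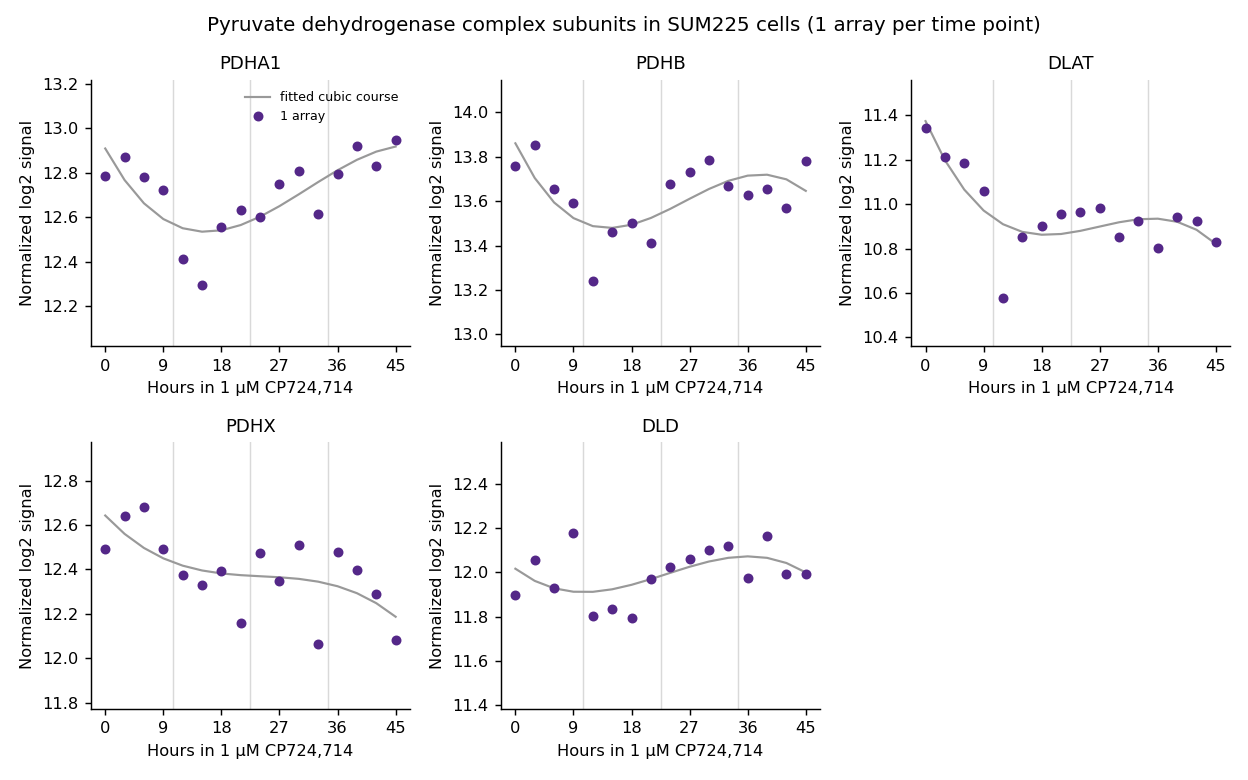
Normalized log2 signal of PDHA1, PDHB, DLAT, PDHX and DLD (y axis, own scale for each gene) against hours in 1 µM CP724,714 (x axis), with 1 point per array, the fitted cubic course as a curve and pale vertical lines between 12 h sets. PDHA1, PDHB and DLAT have their lowest arrays at 12 or 15 h, and the whole range of each gene is under 0.77 log2 units.

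Each set of 4 time points was compared with the one before it. The arrays of a set are successive time points and not replicates, so the error includes any trend inside the set. The borders of the sets came from earlier results of these same data, so the p-values are not independent of that choice. A difference between sets cannot be told apart from a change with time. From 0 to 9 h to 12 to 21 h, 0 of the 9 members rose (0 at an unadjusted p under 0.05 by limma), against 15.9% of all probes, and 4 fell, against 13.9%. PDK3 fell from 10.996 ± 0.200 (SD, n = 4) to 9.75 ± 0.10, a difference of -1.25 ± 0.11 (SE; adjusted p = 1.81e-07 by limma). PDHA1 fell by 0.32 ± 0.08 (adjusted p = 0.00449), PDHB by 0.31 ± 0.07 (adjusted p = 0.00254) and DLAT by 0.38 ± 0.09 (adjusted p = 0.00348). PDK2 and PDK4, whose early values differed most within the first set, had differences of 0.34 ± 0.22 (adjusted p = 0.274) and 0.15 ± 0.24 (adjusted p = 0.678).

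From 12 to 21 h to 24 to 33 h, 1 member rose, PDHB by 0.31 ± 0.07 (adjusted p = 0.00931), against 4.21% of all probes, and 0 fell, against 3.36%. At an unadjusted p under 0.05 by limma, 5 members were higher and 0 lower. The shares of all probes given here are for adjusted calls, and those at the unadjusted level were not computed. PDK4 was higher by 0.62 ± 0.24 (adjusted p = 0.134) and PDK2 by 0.50 ± 0.22 (adjusted p = 0.204), neither past the threshold. From 24 to 33 h to 36 to 45 h, 0 members rose, against 0.72% of all probes, and 0 fell, against 2.82%; at an unadjusted p under 0.05 by limma 1 was higher (PDHA1, 0.18 ± 0.08) and 0 lower. The differences of the 4 kinases between these last sets lay between -0.17 and 0.17.

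**Figure D4:**
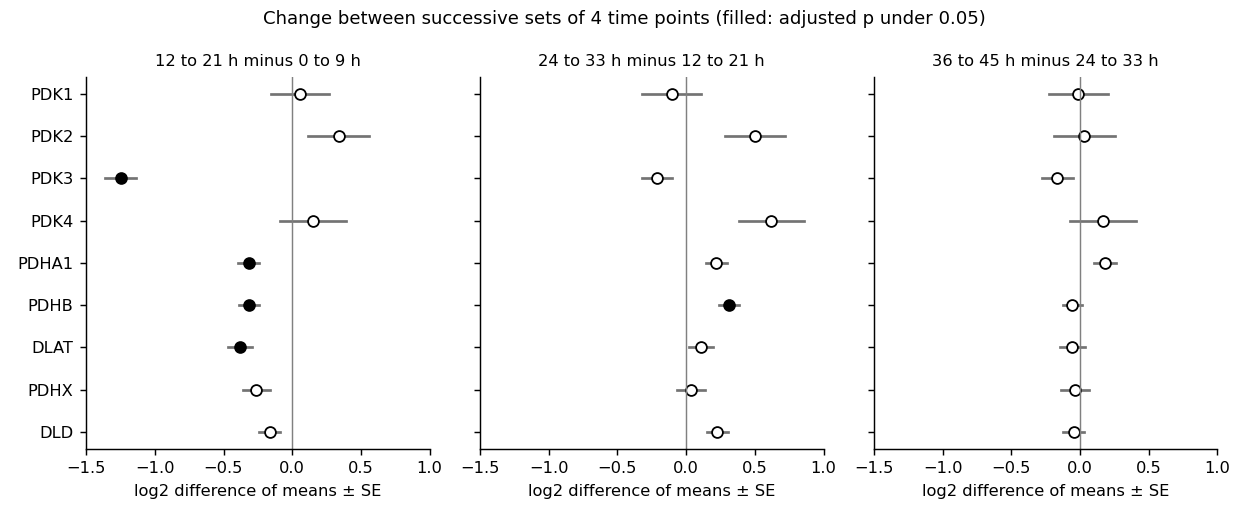
Difference between the means of successive sets of 4 time points for the 9 members, in log2 units (x axis, 1 panel per pair of sets), with bars of 1 SE from limma and filled symbols for an adjusted p under 0.05. PDK3, PDHA1, PDHB and DLAT are filled in the first panel, PDHB in the second and none in the third.

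Single steps across the borders of the sets were uneven. Between 9 and 12 h the signal was lower for 8 of the 9 members, by 0.12 (PDHX) to 1.02 (PDK3), and was higher for PDK1, by 0.46. The share of all probes lower at this step was not computed, so the count is not a result about the members. Between 21 and 24 h it was higher by 0.63 for PDK4 and 0.47 for PDK2 and lower by 0.32 for PDK3. Across arrays, PDK2 and PDK4 had a Pearson r of 0.75 and PDK2 and PDK3 of -0.72 (n = 16). After the fitted courses were removed PDK2 and PDK3 correlated at 0.60, so that on an array where 1 lay above its course the other tended to as well. The 10 pairs of the 5 complex genes had r between -0.02 and 0.73 with a median of 0.43. All these correlations share arrays and normalization and are given as descriptions.

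The phosphatases that reactivate the complex are encoded by PDP1 and PDP2, with PDPR as the regulatory subunit. In this and the other gene lists that follow, counts can be read beside the 26% of all probes that rose and the 21.7% that fell. Of these 3, 1 rose and 0 fell (limma; 0 lower at an unadjusted p under 0.05). PDP1, the calcium-stimulated form, rose by 0.87 ± 0.29 (adjusted p = 0.0163). PDP2 changed by -0.15 ± 0.17 (adjusted p = 0.477) and PDPR by 0.27 ± 0.17 (adjusted p = 0.224).

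Among 8 tested genes of pyruvate transport and of its other fates, 2 rose, 2 fell and 4 did not pass, with a median of 0.08. One that did not pass, PC (pyruvate carboxylase), changed by 0.43 ± 0.20 (adjusted p = 0.0779 by limma) by its brightest probe. A second PC probe rose by 0.89 ± 0.21 (adjusted p = 0.00148). MPC1, a subunit of the mitochondrial pyruvate carrier, rose by 0.47 ± 0.07 (adjusted p = 2.28e-05), while its partner MPC2 changed by 0.10 ± 0.07 (adjusted p = 0.262). Both lactate dehydrogenase subunits fell, LDHA by 0.28 ± 0.08 (adjusted p = 0.00649) and LDHB by 1.35 ± 0.30 (adjusted p = 0.000906). SLC16A3, a lactate exporter, rose by 0.44 ± 0.10 (adjusted p = 0.00119). SLC16A1 and SLC16A7, which also carry lactate and pyruvate, were detected on 0 and 1 arrays and not tested.

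Of 6 genes of the 2-oxoacid dehydrogenases related to the complex, 4 rose, against 26% of all probes, and 0 fell, against 21.7% (limma; 0 lower at an unadjusted p under 0.05), with a median of 0.40. Those that rose belong to the branched-chain complex: BCKDHB by 0.92 ± 0.11 (adjusted p = 1.93e-06), BCKDHA by 0.78 ± 0.10, DBT by 0.58 ± 0.12 and its kinase BCKDK by 0.23 ± 0.09 (adjusted p = 0.0411). OGDH and DLST of the 2-oxoglutarate complex changed by -0.11 ± 0.10 and -0.12 ± 0.09, neither past the threshold. A second OGDH probe rose by 0.55 ± 0.19 (adjusted p = 0.0196), so the probes of this gene disagree.

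**Figure D5:**
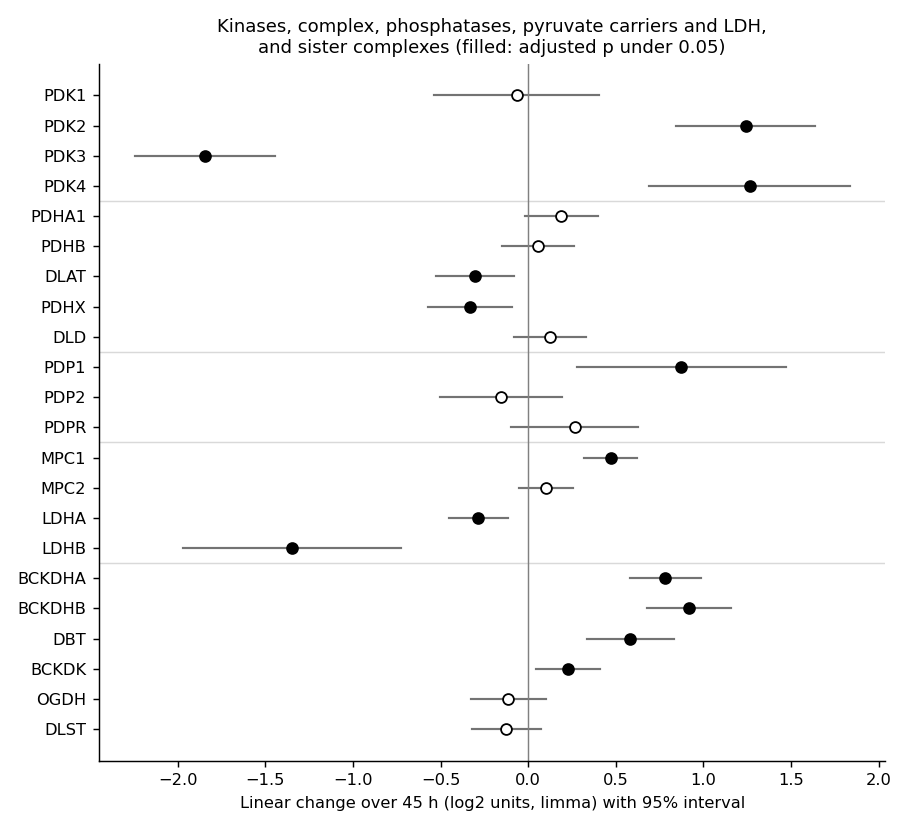
Linear change over 45 h in log2 units (x axis) with its 95% interval from limma for the kinases, the complex, the phosphatases, pyruvate carriers and lactate dehydrogenases, and related 2-oxoacid dehydrogenases (y axis), filled where the adjusted p is under 0.05. PDK3 at -1.85 and LDHB at -1.35 lie farthest to the left, PDK4 at 1.26 and PDK2 at 1.24 farthest to the right.

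Of 5 tested genes that supply lipoate and thiamine, the cofactors of the complex, 2 rose and 0 fell (limma; 0 lower at an unadjusted p under 0.05). LIPT1, which transfers lipoate to E2 proteins, rose by 1.38 ± 0.14 (adjusted p = 9.21e-08) by its brighter probe, but by a second probe changed by -0.04 ± 0.16 (adjusted p = 0.854). LIAS, the lipoate synthase, rose by 0.51 ± 0.11 (adjusted p = 0.000816) by its brighter probe, and by a second changed by 0.32 ± 0.15 (adjusted p = 0.0805). Of 14 genes of the tricarboxylic acid cycle, 2 rose, 3 fell and 9 did not pass, with a median of -0.03. The largest rise was that of SUCLG2, a subunit of succinyl-CoA ligase (0.57 ± 0.10, adjusted p = 7.51e-05), and the largest fall that of IDH3A, a subunit of isocitrate dehydrogenase (-0.71 ± 0.13, adjusted p = 0.000115). CS, citrate synthase, which takes up the acetyl-CoA that the complex makes, fell by 0.65 ± 0.08 (adjusted p = 1.36e-06).

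Of 11 genes of factors known to act on PDK genes, 6 rose, against 26% of all probes, 1 fell, against 21.7%, and 4 did not pass, with a median of 0.45. FOXO1 rose by 0.45 ± 0.11 (adjusted p = 0.00207) and FOXO3 by 0.64 ± 0.09 (adjusted p = 1.21e-05). NR3C1, the glucocorticoid receptor, rose by 1.00 ± 0.14 (adjusted p = 9.72e-06), although a second probe changed by -0.10 ± 0.28. PPARGC1A, a coactivator of oxidative metabolism, rose by 0.96 ± 0.17 (adjusted p = 8.75e-05). PPARD, a nuclear receptor for fatty acids, fell by 0.42 ± 0.15 (adjusted p = 0.0282). The probes of PPARA went opposite ways, 0.68 ± 0.19 (adjusted p = 0.00521) and -1.32 ± 0.23 (adjusted p = 8.73e-05). HIF1A, the hypoxia factor subunit, changed by -0.02 ± 0.21 (adjusted p = 0.941), and by a second probe fell by 0.29 ± 0.11 (adjusted p = 0.0302).

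Of 8 genes of fat oxidation and its regulation, 3 rose, 2 fell and 3 did not pass, with a median of 0.18. ACADM, the medium-chain acyl-CoA dehydrogenase, rose by 0.72 ± 0.07 (adjusted p = 1.40e-07), and it was the 1 gene of these lists to pass within sets. ANGPTL4, an inhibitor of lipoprotein lipase, fell by 1.57 ± 0.39 (adjusted p = 0.00241) by its brightest probe, and its 2 other probes changed by 0.20 and -0.15 without passing. CPT1A, which admits fatty acids to mitochondria, fell by 1.19 ± 0.12 (adjusted p = 1.17e-07).

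The probes whose courses were most like those of each kinase were found by Pearson r over the 16 arrays. For PDK4 they were STARD13 (0.94), FRAT2 (0.92) and FRAT1 (0.90), and the r for deviations from the fitted courses was 0.90, 0.93 and 0.78. For PDK3 they were RFC2 (0.99), MCM2 (0.99) and BOLA3 (0.98), of which RFC2 and MCM2 are DNA replication proteins. For PDK2 they were LETMD1, CCDC28A and SPG3A, each at 0.97. For PDK1 the nearest were HIST2H2BF (0.83), LOC432369 (0.83) and RABGGTA (0.80). Each set of 3 was picked as the highest of 16110 probes, so these values describe the pick and carry no test.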

How the data were processed

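RNA of 16 parallel SUM225 cultures was labelled with biotin and hybridised to Illumina bead arrays, 1 per time point. The table deposited by the authors gives a signal intensity per probe and array, with neither background subtraction nor normalization, and a detection p-value; the authors' quantile normalization came after it. The methods name the Illumina human Ref8v2 array for time courses of other lines, and the version used here is not in the labels. Scanning software was not given in the sources used here. The methods name another medium for this line than the labels. The number of arrays limits the precision.

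Signals were corrected with neqc of limma 3.58.1 in R 4.3.3 (offset 16, quantile normalization, log2). Probes detected (p under 0.05) on 3 or more arrays were each fitted with a cubic in hours (lmFit, then eBayes with trend). Tests were two-sided, adjusted by the Benjamini-Hochberg method over 16110 probes, at a threshold of 0.05. The fits were also run on simulated data with independent noise and straight-line trends. Those data held no 12 h sets, so that run cannot show how the p-values behave under them. Pair differences were fitted by least squares with a 95% t interval. Symbols are those of the table, and FOXO1, FOXO3, PDP1, MPC1, MPC2 and EPCAM were found under older names. Of the symbols, 91.0% and all 9 members matched RefSeq (GRCh38.p14). Upstream stretches were those richest in CG dinucleotides.

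Members, gene lists, motifs and the 12 h sets were chosen with earlier results of these data known. Named genes were the 9 members, the largest rise and fall of each list by its brightest probe, PDP1, PDP2, PDPR, MPC1, MPC2, LDHA, LDHB, FOXO1, FOXO3 and HIF1A, and the 3 genes most like each kinase; others were named after their values were seen. The fat oxidation list and its counts omit 1 gene that is not reported here. Alternatives were no background correction, an offset of 50, median scaling, cyclic loess, other filters, a step between 21 and 24 h, the set as a factor, array weights, a straight line alone, and each array left out. Figures were drawn with matplotlib 3.10.9.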

Additional observations from a re-analysis of the deposited data

How the results depend on the processing

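No paired analysis was possible because no time point had more than 1 array. Of 289 recomputed values of the main results 262 were scored as kept, and 311 of 343 for single members and for counts of rises and falls. A fitted change was kept if its direction stayed and it remained on the same side of the threshold (for pairs, if the interval still excluded or included 0). A count was kept if it stayed near the main count, so 5 time-dependent calls in place of 6 were scored as kept. The cause of the values not kept was not tested. The 5 linear calls became 1 (PDK3) with a step between 21 and 24 h and 0 with the set as a factor, and 3 to 5 with 1 array left out, lowest without 6 h. Curved calls, 2, became 4 with median scaling and 0 (without 3 h) to 3 with 1 array left out. Time-dependent calls stayed at 5 or 6, and calls between successive sets at 4 to 6, 1 or 2, and 0. With the set as a factor the pair differences were 1.68 (PDK4 minus PDK3), -1.57 (PDK4 minus PDK2), 0.24 (PDK4 minus PDK1), -1.44 (PDK3 minus PDK1) and 1.81 (PDK2 minus PDK1). With the step the last 3 were 0.58, -1.70 and 0.52. Array weights gave -0.39 for PDK4 minus PDK2. With 1 array left out the 6 ranges were 2.64 to 3.37 (PDK4 minus PDK3), -0.078 to 0.42 (PDK4 minus PDK2), 0.95 to 1.705 (PDK4 minus PDK1), -3.24 to -2.71 (PDK3 minus PDK2), -2.00 to -1.59 (PDK3 minus PDK1) and 1.02 to 1.53 (PDK2 minus PDK1). Signs turned for members without a linear call: PDK1 (0.63 with the set, -0.30 to 0.088 with 1 array left out), PDHB (-0.45 with the step, -0.11 with weights, -0.0076 to 0.15 with 1 array left out) and DLD (-0.15 with the step). Among called members, the sign of DLAT turned with the set (0.043), and a straight line alone took its adjusted p to 0.0689. PDHA1 gained a linear call without the 0 h (adjusted p = 0.0432) or 3 h array (adjusted p = 0.0439). Cyclic loess moved the median linear change of all probes from 0.05 to 0.003.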
